A study of Caenorhabditis elegans with 6 samples.

Results

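The major sperm protein (*msp*) gene family was followed on Affymetrix arrays of whole worms at mid-age. Its members were taken as every row of the deposited values whose WormBase identifier falls in the run of 44 consecutive gene numbers that holds the *msp* genes, whatever their change. Of these 44 identifiers, 3 have a row among the 17397 genes of the file, and the other 41 have none and are not analysed here. The rows are *msp-76* (WBGene00003463), *msp-50* (WBGene00003443) and WBGene00003430, which has no name in the sources used here and is called by its identifier. It is counted as an *msp* row by its number alone, and whether it is a coding *msp* gene was not checked.

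The study compared 3 populations of wild-type (wt) N2 worms with 3 populations of *dcap-1(tm3163)* worms, hereafter *dcap-1(rf)*, which carry a reduction-of-function allele of the decapping activator DCAP-1 and had been crossed to N2. Decapping removes the cap from the 5′ end of mRNAs, which can then be degraded or, as the study states, be stored. All 6 populations were collected on day 9 of adulthood after growth at 20 °C on *E. coli* OP50, killed by UV according to the methods, with 10 μg/mL of the DNA synthesis inhibitor FUDR, so that both strains carried this treatment. Each array was hybridized with RNA pooled from 200 to 300 whole worms, starting from 150 ng of total RNA.

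Major sperm protein is among the most abundant proteins of nematode sperm. It polymerizes into the filaments that drive the crawling of these sperm, which have no actin-based motility, and it is stored during spermatogenesis in fibrous bodies. It is also released from sperm and acts as a signal that triggers oocyte maturation and contraction of the gonadal sheath. *C. elegans* hermaphrodites make their sperm first and then switch to oocytes, so that the store of self-sperm is used up during adulthood. In RNA from whole worms, a change in the number of cells of a type and a change in the RNA per cell cannot be told apart.

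Values are log2 expression made by RMA, which equalizes the probe signals of the arrays and makes no detection call. The median of an array was 2.18 to 2.24, and any pair of arrays had a Pearson's r of 0.990 to 0.997 across genes, which are not independent replicates. *dcap-1* itself was lower in *dcap-1(rf)* (log2 fold change -0.77, standard error 0.08), and its mutant arrays all lay below its wt arrays, as was the case for 9.67% of the genes tested. Strains were compared with limma over the 13047 genes left after removal of the 25% with the lowest average, and genes with a Benjamini-Hochberg adjusted p under 0.05 are called. The deposited values were made per gene, so values of different genes are not set against each other as levels.

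Of the 3 *msp* rows, *msp-76* and *msp-50* rose in *dcap-1(rf)* by more than 10-fold each, and WBGene00003430 was not called. Over all genes tested, 1.46% were called higher in *dcap-1(rf)* and 0.161% lower, so 2 of 3 rows stood against a background of 1.46%; with 3 rows out of 44 identifiers, this count does not describe the family. All 3 rows passed the filter on low averages, set at a value of 1.33, and the wt mean of each lay above that value. The median log2 fold change of the 3 rows was 3.48, against -0.02 over all genes tested. With 3 rows this median is the value of *msp-50* alone, and WBGene00003430 had 0.09.

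*msp-76* (sequence name ZK1251.6) lies on chromosome IV of WBcel235 from 9689015 to 9689398. Its log2 values were 2.87, 3.20 and 2.56 in wt (replicates 1 to 3) and 6.24, 6.62 and 6.37 in *dcap-1(rf)* (replicates 1 to 3). The groups did not overlap, which for all mutant arrays above all wt arrays was true of 8.93% of the genes tested, and they were separated by 3.03 on the log2 scale, from the highest wt array to the lowest mutant array, while the wt arrays spanned 0.65 and the mutant arrays 0.38. The wt mean was 2.88 ± 0.32 (SD, n = 3) and that of the mutant 6.41 ± 0.19 (SD, n = 3). This is a log2 fold change of 3.53 with a 95% interval from 3.13 to 3.93, or 11.5-fold with an interval from 8.76 to 15.2 (limma, Benjamini-Hochberg adjusted p = 2.18e-04). Of the 9 pairs of a mutant and a wt array, 9 had the higher value in the mutant, the smallest difference being 8.18-fold and the largest 16.7-fold.

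*msp-50* (sequence name C34F11.4) lies on the other *msp* chromosome, chromosome II of WBcel235, from 5199797 to 5200180. Its log2 values were 3.45, 3.50 and 3.25 in wt and 6.61, 7.07 and 6.95 in *dcap-1(rf)*, in the order of the replicate numbers. No array of one strain came near those of the other, and the gap between the groups was 3.11. The wt mean was 3.40 ± 0.13 (SD, n = 3) and the mutant mean 6.88 ± 0.24 (SD, n = 3). The log2 fold change was 3.48 with a 95% interval from 3.17 to 3.78, or 11.1-fold with an interval from 9.01 to 13.8 (limma, Benjamini-Hochberg adjusted p = 7.20e-05). Of the 9 pairs of arrays, 9 were higher in the mutant, by 8.66-fold to 14.2-fold. For both genes *dcap-1(rf)* replicate 2 was the highest mutant array and replicate 1 the lowest, and wt replicate 3 the lowest wt array.

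WBGene00003430 gave another picture. Its log2 values were 3.77, 3.13 and 3.22 in wt and 3.30, 3.81 and 3.29 in *dcap-1(rf)*, in the same order. The groups overlapped, with 1 array in each, wt replicate 1 and *dcap-1(rf)* replicate 2, standing above the others of its group. The means were 3.37 ± 0.35 (SD, n = 3) and 3.46 ± 0.30 (SD, n = 3). The log2 fold change was 0.09 with a 95% interval from -0.38 to 0.56, or 1.07-fold with an interval from 0.769 to 1.48 (limma, Benjamini-Hochberg adjusted p = 0.869). The interval includes no change and also a decrease or an increase of moderate size, and its upper end is far below the lower ends for *msp-76* and *msp-50*. Its direction turned negative when wt replicate 2 was left out (-0.03) or when *dcap-1(rf)* replicate 2 was (-0.08).

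**Figure D1:**
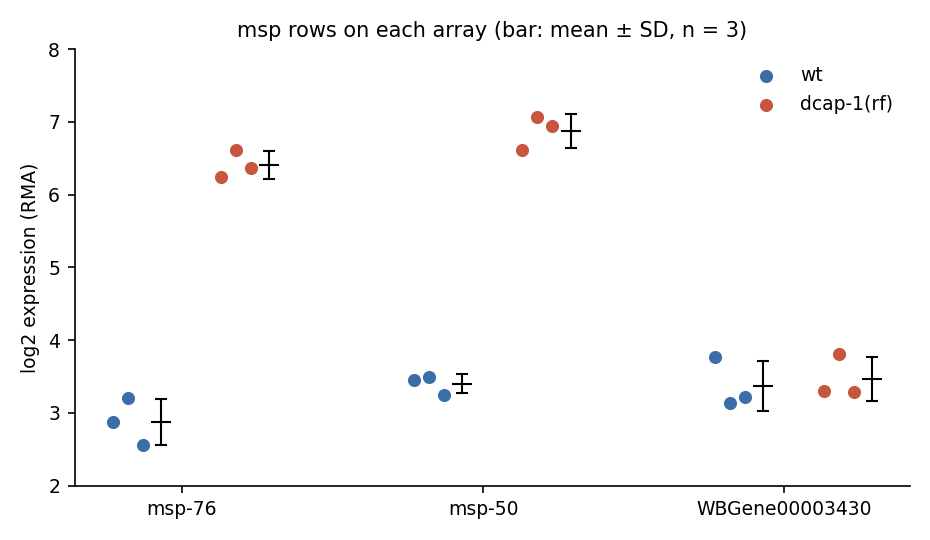
Log2 expression (vertical axis, from 2 to 8) of the 3 *msp* rows on each of the 3 wt and 3 *dcap-1(rf)* arrays, with points for arrays in the order of their replicate numbers and bars for the mean ± SD. The mutant arrays lie between 6.24 and 7.07 for *msp-76* and *msp-50*, above every wt array, and the groups overlap for WBGene00003430.

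The changes of the rows were compared with each other in 3 pairs, by taking the difference between 2 rows on every array and comparing the strains. WBGene00003430 minus *msp-50* lay between -0.37 and 0.31 on the wt arrays and between -3.66 and -3.27 on the *dcap-1(rf)* arrays, so that the log2 fold changes differed by -3.39. Against *msp-76* the corresponding ranges were -0.07 to 0.90 and -3.08 to -2.81, a difference of -3.44. Neither pair overlapped between strains, and each had p = 0.10 (two-sided exact permutation test, 0.15 after Benjamini-Hochberg adjustment over 3 pairs), the smallest p that 3 arrays against 3 allow. *msp-50* minus *msp-76* was 0.52 ± 0.20 (SD, n = 3) on the wt arrays and 0.47 ± 0.10 (SD, n = 3) on the mutant arrays, and the strain difference of -0.05 was smaller than either SD (p = 0.80, exact permutation test, 0.80 after adjustment).

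Among all genes tested, *msp-76* ranked 1 and *msp-50* ranked 2 by log2 fold change, and the rank of WBGene00003430 was 3045. Of the genes tested, 95 had a log2 fold change above 1, 16 above 2 and 6 above 3. All 3 rows had wt means between 2.38 and 3.90, a range that reaches 0.5 beyond their lowest and highest wt mean and holds 2894 of the genes tested. In that range the median log2 fold change was -0.01, 1.90% of the genes were called higher, and 3 genes exceeded 3, namely *msp-76*, *msp-50* and *msd-4*, a gene for a small protein with a major sperm protein domain. The SD between wt arrays was 0.12 for the median gene of this range, against 0.32 for *msp-76*, 0.13 for *msp-50* and 0.35 for WBGene00003430.

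**Figure D2:**
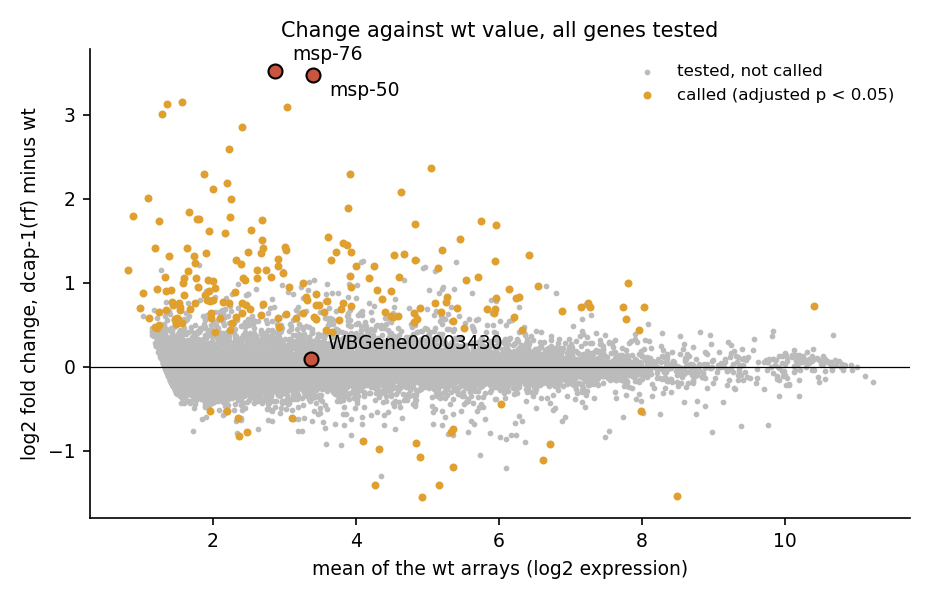
Log2 fold change of *dcap-1(rf)* minus wt (vertical axis) against the mean of the wt arrays in log2 expression (horizontal axis) for the 13047 genes tested, with grey points for genes not called, orange points for called genes and large red points for the *msp* rows. *msp-76* and *msp-50* are the highest points of the plot, at 3.53 and 3.48, and WBGene00003430 lies at 0.09 among genes not called.

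The calls did not hinge on a single array. When the arrays were left out 1 at a time, the change on the log2 scale was between 3.37 and 3.69 for *msp-76* and between 3.38 and 3.61 for *msp-50*, and both were called in 6 of 6 such fits, with adjusted p from limma no higher than 0.00368. WBGene00003430 lay between -0.08 and 0.29 in these fits and was called in none of them (lowest adjusted p from limma 0.640).

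**Figure D3:**
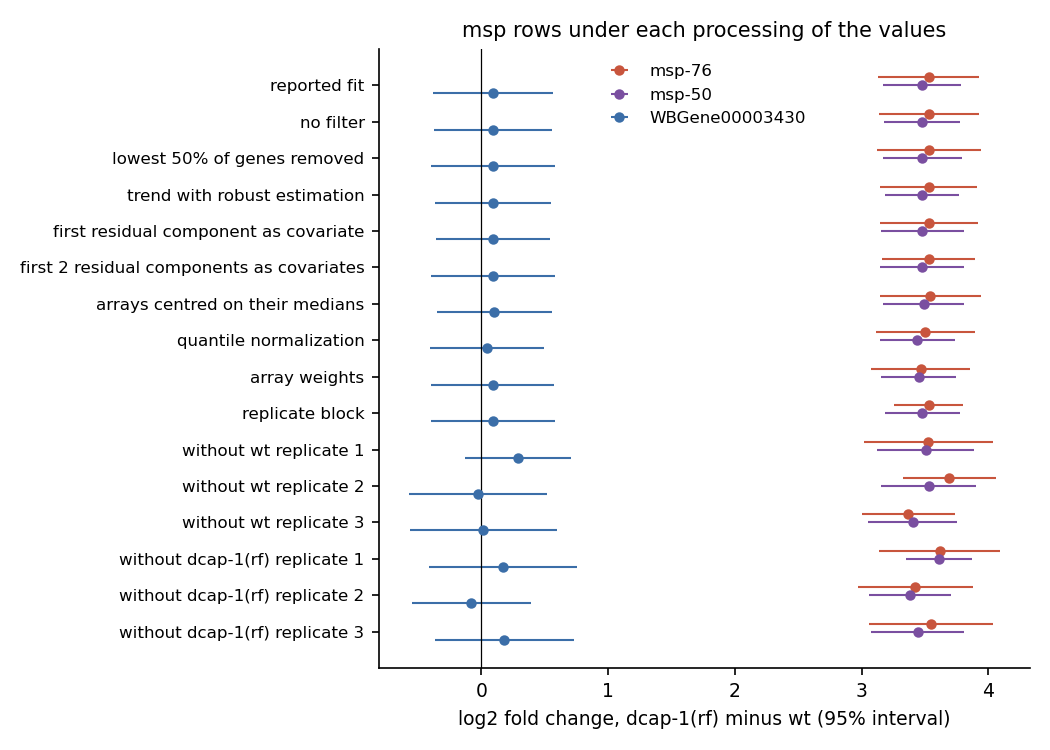
Log2 fold change of *dcap-1(rf)* minus wt with its 95% interval (horizontal axis) for the 3 *msp* rows in the reported fit, in 9 other ways of processing the values and with each of the 6 arrays left out (vertical axis). The points of *msp-76* and *msp-50* stay between 3.37 and 3.69, and every interval of WBGene00003430 includes 0.

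The RefSeq annotation of WBcel235 names 35 *msp* genes, 31 of them protein-coding and 4 pseudogenes, with 15 on chromosome II and 20 on chromosome IV. On chromosome II they lie between 4785898 and 5810330, and on chromosome IV they fall into 10 genes before and 10 genes after an interval of 4372109 bp. The family is uniform in size, with 28 of the 31 coding genes annotated at 384 bp, *msp-76* and *msp-50* included. Its members are known as near-copies of each other, and how far the signal of a row includes transcripts of other copies was not tested. The gene closest to *msp-50* within the family is *msp-49*, 5048 bp away, while *msp-76* stands 77.4 kb from the nearest other copy, *msp-79*. Neither neighbour has a named row here. No sequence of these genes is in the sources used here, and none is shown.

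Some of the genes called higher lie beside the annotated *msp* genes. Apart from the *msp* rows themselves, 184 genes called higher have a name and a position, and 20 of them (10.9%) lie within 100 kb of an annotated *msp* gene, where 2.55% of the other protein-coding genes of the annotation lie (508 of 19952). Among 1807 named genes that were not called higher, 56 (3.10%) lie there. Of the 19 genes called lower that have a name, 0 do. The genes called higher had passed the filter on low averages, while the coding genes of the annotation were not filtered. Among the 20, *gipc-2*, *nspd-2* and *ZK1248.5* had wt means of 1.10, 1.29 and 1.25, under the filter value of 1.33. These passed it only through their mutant arrays. In the fit without the filter, 19 of 179 such genes lay within that distance (10.6%). Neighbouring genes are not independent of each other and names were available mainly for genes with positive changes, so these shares are a description. The 20 genes became 10 when wt replicate 1 or wt replicate 2 was left out and 12 when *dcap-1(rf)* replicate 2 was, while their share of the genes called higher lay between 7.58% and 13.9% over all fits.

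These 20 genes, 7 on chromosome II and 13 on chromosome IV, had log2 fold changes from 0.43 to 3.13 with a median of 1.06, against a median of 0.88 for the 164 named genes called higher elsewhere. The study's classification of germline-specific genes calls 10 of them spermatogenic, 2 of both gamete types and 0 oogenic, and leaves 8 unclassed. It covers only genes that the study itself called, and most of those it placed in the germline were spermatogenic. The share among the called genes elsewhere was not computed, so these counts do not set the 20 genes apart. Of the 20, *ZK1248.4*, 8.27 kb from *msp-64*, rose most, from 1.80, 1.19 and 1.09 on the wt arrays to 4.19, 4.74 and 4.55 on the mutant arrays. *nspd-2*, of a nematode-specific peptide family expressed in sperm, lies 2.14 kb from *msp-56* and changed by 3.01 on the log2 scale (standard error 0.32). It had 1.64, 0.93 and 1.31 on the wt arrays and 3.57, 4.85 and 4.51 on the mutant arrays. Its wt mean of 1.29 lay under the filter value of 1.33. The sperm chromatin gene *spch-1*, 15002 bp from *msp-36*, changed by 1.37 (standard error 0.15), and the sperm-specific family genes *ssp-10*, *ssq-1* and *ssq-2* had 1.07, 0.87 and 1.06.

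Not all genes called higher in these stretches are sperm genes. The insulin-like peptide gene *ins-7* is the called gene closest to *msp-76*, at 6.17 kb, and rose from 3.03 ± 0.21 to 4.42 ± 0.19 (SD, n = 3 each). The fatty acid desaturase gene *fat-4*, 29000 bp from *msp-78*, changed by 0.43 on the log2 scale (standard error 0.07), and *ifb-2*, which encodes an intermediate filament protein of the intestine, 0.74 (standard error 0.12) at 42.9 kb from *msp-63*. These examples were chosen after their values were seen.

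**Figure D4:**
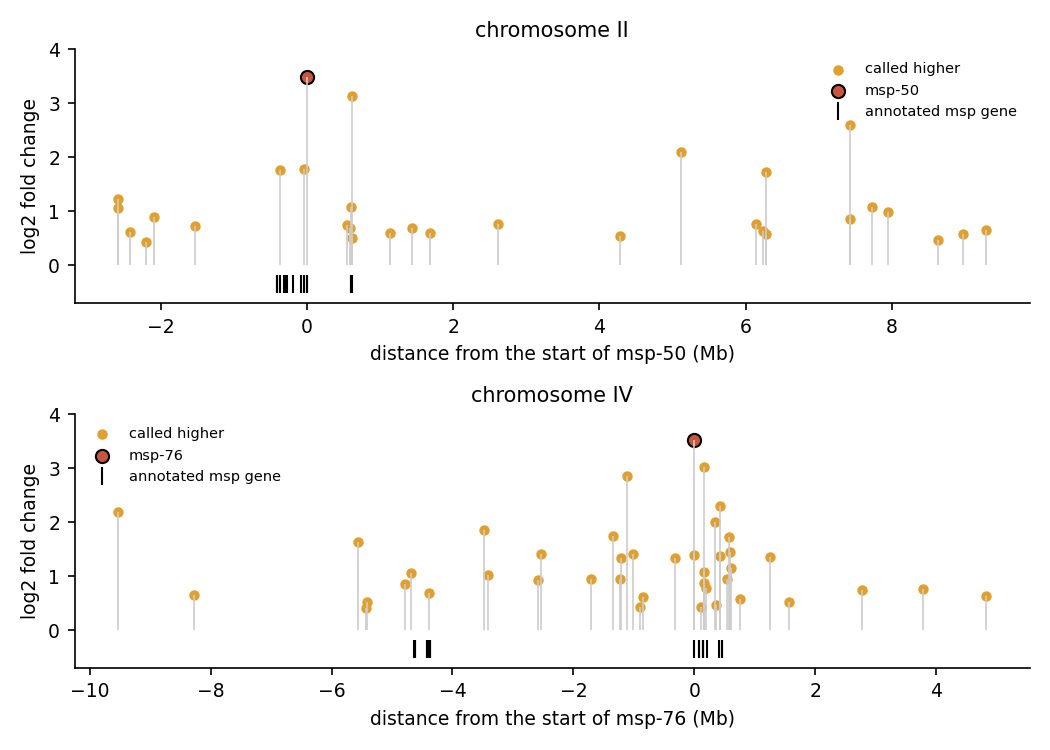
Log2 fold change (vertical axis) of the named genes called higher in *dcap-1(rf)* on chromosomes II and IV against the distance from the start of *msp-50* or *msp-76* in Mb (horizontal axis), with red points for those 2 genes, orange points for the others and black ticks for annotated *msp* genes. On chromosome II the tall points near 0 and the group to its right stand beside ticks. On chromosome IV *ins-7* lies close to *msp-76* and other called genes stand beside the ticks to the right of *msp-76*, while many others lie far from any tick.

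Of 76 entries in 5 lists of genes that act with major sperm protein or in the making and use of sperm, 10 could be matched to a named row, and 1 was called higher and 0 lower. Among the 1998 named genes, 186 were called higher and 19 lower, against 1.46% and 0.161% of all genes tested. Since names were available mainly for genes with positive log2 fold changes, the direction of these 10 was fixed by the choice and the counts do not describe the lists. The called gene was *spe-46*, a membrane protein gene involved in sperm activation, with 2.19, 1.96 and 1.86 in wt and 2.74, 2.77 and 2.88 in *dcap-1(rf)*. Its mutant arrays all lay above its wt arrays, as was the case for 8.93% of the genes tested. It changed by 0.80 on the log2 scale (standard error 0.10, limma adjusted p = 0.00962), but it was not called without wt replicate 2 (limma adjusted p = 0.0700).

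Of the list of fibrous body assembly, 2 of 15 genes were matched, with 0 called and a median log2 fold change of 0.26. *spe-5*, a subunit of the vacuolar proton pump of the sperm organelles, had 4.19 ± 0.03 in wt and 4.53 ± 0.02 in *dcap-1(rf)* (SD, n = 3 each; limma adjusted p = 0.0598), and *spe-4*, a presenilin of those organelles, had a difference of 0.18 on the log2 scale (limma adjusted p = 0.449). Of the list of sperm fate and transcription, 4 of 15 were matched with 0 called and a median of 0.30. *fog-3*, which directs germ cells to the sperm fate, had a difference between strains of 0.45 on the log2 scale (standard error 0.22, limma adjusted p = 0.417), *fog-1*, with a like role, 0.33 (standard error 0.10), and *spe-44*, a transcription factor of the sperm program, 0.27 (standard error 0.12). These values are small beside the 3.53 and 3.48 of *msp-76* and *msp-50*, a difference that was not tested.

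For the list of sperm activation the matched genes numbered 3 of 13 (median 0.36), for sperm-egg interaction 1 of 12 (*spe-11*, 0.25), and for the reception of major sperm protein and oocyte maturation 0 of 21. Of the markers of cell types, 9 of 58 were matched. Markers of intestine (3 of 8 matched), body wall muscle (3 of 5) and hypodermis (2 of 5) had wt means from 3.05 to 5.79 on the log2 scale. Of the oocyte markers 1 of 14 was matched, *egg-2*, an oocyte surface protein needed for fertilization. It had 8.17 in wt and 7.92 in *dcap-1(rf)* and was not called (limma adjusted p = 0.157). Its mutant arrays all lay below its wt arrays, as for 9.67% of the genes tested. Only 52 of the 1998 named genes were not higher in *dcap-1(rf)*. Whether *egg-2* was named through its direction is not known, and 1 gene does not describe the oocytes. All 8 matched somatic markers had positive log2 fold changes, with medians of 0.25 for intestine, 0.24 for body wall muscle and 0.50 for hypodermis and a range from 0.20 for *elt-2* to 0.74 for *ifb-2*. The mutant arrays all lay above the wt arrays for *elt-2*, *act-5*, *ifb-2* and *col-19* and overlapped them for the others. Over all genes tested, 8.93% had all mutant arrays above all wt arrays. These markers too were named mainly through positive changes. Their direction was thus fixed by the choice, and their separation cannot be read against that share. Of the 9 matched markers 1 was called, *ifb-2*, where 186 of the 1998 named genes were called higher. The part of these markers in the change of *msp-76* and *msp-50* was not tested. No marker of males, of the gonadal sheath and spermatheca or of dividing and meiotic germ cells was matched, so that a change in these cells beside that of *msp-76* and *msp-50* was not tested.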

How the data were processed

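Total RNA of 3 wt and 3 *dcap-1(rf)* populations was hybridized on Affymetrix *C. elegans* Genome Arrays. The authors deposited log2 values, 1 per gene and array, made by RMA in its default setting with a gene-level chip description from BrainArray; R 3.3.0 and WBcel235 are named in the submitters' processing notes. The methods name surrogate variable analysis, and whether the deposited log2 values carry it is not given in the sources used here. Labels call the samples separately harvested populations.

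The log2 values were used as deposited. A linear model with strain as its only term was fitted with limma 3.58.1 in R 4.3.3, the 25% of genes with the lowest average were removed, and empirical Bayes moderation (prior degrees of freedom 3.53) and Benjamini-Hochberg adjustment over 13047 genes followed. The fit was tested on simulated data. Tables and figures used Python 3.11.15, pandas 2.3.3, scipy 1.17.1 and matplotlib 3.10.9. With 3 arrays per group, precision is limited by their number.

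Members and lists were chosen with earlier results of these data known. Gene names came from the study's gene lists (1998 genes, 1946 of them with positive log2 fold changes here), and positions from RefSeq by sequence name. The rule for names was every *msp* row, with values on each array for called rows and those at the ends of the range, and for the other lists the called genes or those with the largest and smallest change; further genes were chosen after their values were seen. Columns of the authors' own comparisons in those lists, fold changes and p-values, were not used.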

Additional observations from a re-analysis of the deposited data

How the results depend on the processing

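The fit was repeated without the filter, with the lowest 50% of genes removed, with a trended and robust prior, with 1 or 2 residual components as covariates, after median centring or quantile normalization, with array weights, with a replicate block, and with each array omitted. In all of them 2 *msp* rows were called higher and 0 lower, and the median log2 fold change of the 3 rows lay between 3.44 and 3.49 with all arrays and between 3.37 and 3.61 with an array left out. In each fit this median is the value of *msp-50* or *msp-76* and does not describe the remaining row. WBGene00003430 lay between -0.08 and 0.29 with an array left out; it reversed to -0.03 without wt replicate 2 and to -0.08 without *dcap-1(rf)* replicate 2. With the lowest 50% removed, the called genes of fibrous body assembly numbered 1 (*spe-5*, adjusted p = 0.0489 from limma), where fewer genes were tested, and otherwise 0. Those of sperm activation numbered between 0 and 1 with an array left out. The genes called higher within 100 kb of an *msp* gene, a count added after seeing the data, numbered between 10 and 21 with an array left out, and 17 and 24 within 50 and 250 kb. Same-numbered wt and *dcap-1(rf)* arrays had correlations of deviations of 0.0496, 0.0838 and 0.122, and each array correlated best with its own number. These correlations are small, and whether same-numbered arrays share more than a number was not tested. With the replicate block 2 *msp* rows were called, and over all genes 213 were called higher in place of 190 and 33 lower in place of 21. Identity between copies was not run, since no sequence was given. The values carry no detection call, so that low wt values are not known to lie above background.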
